A study of Mus musculus with 18 samples.

Results

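The 10 genes described here encode 5 neuropeptide precursors and 5 of their receptors: Cck, Nts, Nmu, Adcyap1 and Trh on the peptide side, and Cckbr, Ntsr1, Ntsr2, Nmur2 and Adcyap1r1 on the receptor side. They were chosen by name, as the rows of the deposited count table whose gene identifier was paired with one of these symbols, and all 10 were found among 55573 genes. RNA was sequenced from the dorsal horn of the spinal cord on the injected side (ipsilateral DHSC) in 18 C57BL/6J mice aged 8 to 12 weeks, 2 h after 2% formalin was injected into the hind paw at 8 µl per 20 g of body weight. Formalin injected in this way is an irritant that drives nocifensive behavior in phases separated by a quieter interphase. The 3 groups held 6 mice each: F1/proestrus females, which had a short interphase and were in proestrus, F2/metestrus females, which had a long interphase and were in metestrus, and males. Behavioral type and cycle stage were matched by selection in the females, so their parts cannot be told apart, and all 18 mice received formalin, so the values hold no uninjected baseline.

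Neuropeptides are cut from larger precursors, stored in dense core granules and released on strong firing, after which they act on G protein-coupled receptors on nearby cells. In the superficial dorsal horn, cholecystokinin and neurotensin precursors mark populations of excitatory interneurons, and cholecystokinin acting on its type B receptor is known to oppose opioid analgesia. Neurotensin acts through Ntsr1 and Ntsr2, neuromedin U acts in the central nervous system through Nmur2, a receptor found on superficial dorsal horn neurons, and PACAP, the product of Adcyap1, acts through the PAC1 receptor encoded by Adcyap1r1. Trh encodes the precursor of thyrotropin-releasing hormone, a tripeptide also used by neurons outside the hypothalamus.

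The libraries held between 73590509 and 125724156 counts. Library numbers in the table header fell into 2 series, replicates 1 to 3 and replicates 4 to 6 of every group, and 27% of genes differed between them, so each result is given within the series where it matters. Markers of the labelled tissue were present in every library: 7 genes of dorsal horn excitatory neurons summed to between 391 and 452 counts scaled to a common library total (CPM) and 5 of inhibitory neurons to between 601 and 869 CPM. F1/proestrus replicate 5 stood apart. Its 8 sensory ganglion markers summed to 507 CPM, against 3.27 to 6.23 CPM in the other 17 libraries, with Scn10a at 124 CPM there and 0 in its lowest library. Some results are therefore also given without it, and no call on the 10 genes between groups changed when it was left out. The motor neuron sum ranged from 23.2 to 319 CPM, highest in the same library and lowest in male replicate 5. Prph, 1 of the 6 genes of that list, made 202 CPM of the sum in F1/proestrus replicate 5. How much of that sum came with the sensory ganglion transcripts was not tested. In bulk tissue, fewer cells of a type and less RNA per cell cannot be told apart.

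All 10 genes were detected in all 18 libraries, from 197 counts for Ntsr1 in its lowest library to 49051 for Ntsr2 in its highest. Levels between genes were compared as CPM per kilobase of exon. Ntsr2, a receptor associated with astrocytes, was highest at 118 ± 9.16 (SD, n = 18), above 98.4% of the 24849 genes with a length and a level. Ntsr1, the other neurotensin receptor, was lowest at 0.884 ± 0.124, and the ratio of the means was 133. Adcyap1r1 stood at 44.6 ± 4.81 and Cck at 40.8 ± 8.25, and these neighbors did not separate, since Adcyap1r1 was the higher in 12 of 18 libraries. Nts followed at 15.5 ± 2.57. Nmu at 9.57 ± 2.31 and Adcyap1 at 8.84 ± 1.16 were also not separated, with Nmu the higher in 11 of 18 libraries. Cckbr stood at 7.81 ± 0.502, Trh at 4.31 ± 0.686 and Nmur2 at 2.97 ± 0.399. Adcyap1 was above Cckbr in 16 of 18 libraries, and each of the remaining steps in the order held in 18 of 18. Among the pairs of ligand and receptor, the receptor transcript was the more abundant for PACAP, and the peptide transcript for cholecystokinin and neuromedin U.

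**Figure D1:**
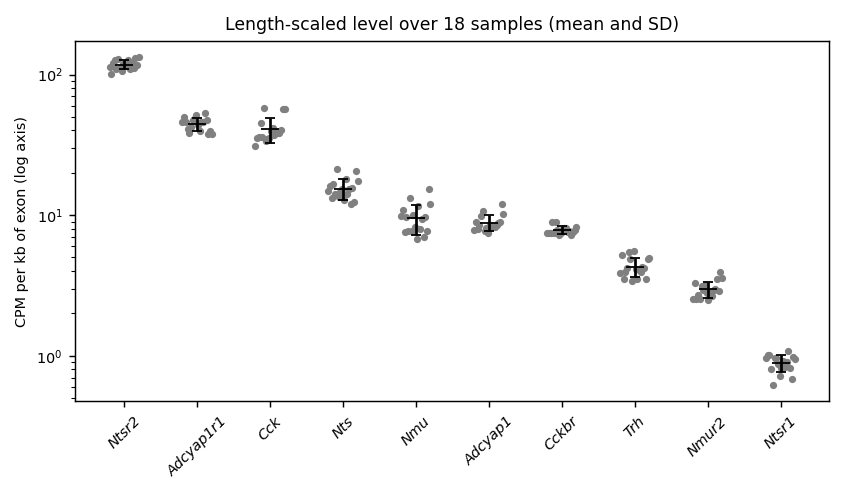
CPM per kilobase of exon (log axis) for each gene, with a gray point for each of the 18 libraries and a bar for the mean and SD. Ntsr2 at 118 and Ntsr1 at 0.884 mark the ends of the order, while Adcyap1r1 overlaps Cck and Nmu overlaps Adcyap1.

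Levels of one gene across samples are given below as CPM. Cck (ENSMUSG00000032532, GRCm38 chr9:121489824-121495694, minus strand) had a lowest, median and highest value of 40.3, 46.6 and 75.8 CPM in F1/proestrus, 44.1, 47.5 and 54.7 in F2/metestrus, and 50.0, 51.8 and 74.4 in males. The high end was made by 3 libraries of the second series, F1/proestrus replicate 6 at 75.8, male replicate 6 at 74.4 and male replicate 5 at 74.0 CPM. Every other library lay at or under 58.9 CPM, and the 3 groups overlapped. Its receptor Cckbr (chr7:105425731-105470898, plus strand) had the lowest coefficient of variation of the 10, 6.43%, and lay between 20.5 and 25.7 CPM over all libraries.

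Nts (ENSMUSG00000019890, chr10:102481756-102490486, minus strand) ran from 16.5 through a median of 19.4 to 26.4 CPM in F1/proestrus, from 16.0 through 17.97 to 22.6 in F2/metestrus, and from 15.02 through 19.4 to 25.5 in males. The highest values were again those of F1/proestrus replicate 6 and male replicate 5. Ntsr1 (chr2:180499976-180544980, plus strand), the high-affinity receptor, lay between 2.42 and 4.22 CPM, with its lowest value in F1/proestrus replicate 5. Ntsr2 (chr12:16653382-16660227, plus strand) lay between 314 and 415 CPM.

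Nmu (ENSMUSG00000029236, chr5:76333495-76363788, minus strand) had the largest coefficient of variation of the 10, 24.2%. Its lowest, median and highest values were 6.28, 8.08 and 10.9 CPM in F1/proestrus, 5.597, 6.72 and 9.60 in F2/metestrus, and 5.82, 7.89 and 12.7 in males. Male replicate 5 was the highest library and F2/metestrus replicate 4 the lowest. A 55-base stretch of its exons overlaps the gene 4930432L08Rik on the opposite strand, so reads there could not be told apart if counting ignored strand, a setting not given in the sources used here.

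Nmur2 (ENSMUSG00000037393, chr11:56024987-56041010, minus strand) had a lowest, median and highest value of 8.32, 8.70 and 10.8 CPM in F1/proestrus, 8.27, 9.33 and 10.6 in F2/metestrus, and 9.51, 10.6 and 13.0 in males. The 3 highest libraries were male replicates 5, 6 and 3, and the other 3 males lay within the female range.

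Adcyap1 (ENSMUSG00000024256, chr17:93199017-93206537, plus strand) ran from 29.7 through 33.2 to 40.6 CPM in F1/proestrus, from 28.4 through 30.8 to 32.4 in F2/metestrus, and from 31.3 through 33.4 to 45.3 in males. The library with sensory ganglion transcripts, a cell class in which Adcyap1 is also known to be expressed, held 37.3 CPM, the fourth highest of the 18. Adcyap1r1 (ENSMUSG00000029778, chr6:55451978-55501451, plus strand) lay between 249 and 353 CPM, and Trh (chr6:92242061-92244650, minus strand) between 4.74 and 7.67 CPM.

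**Figure D2:**
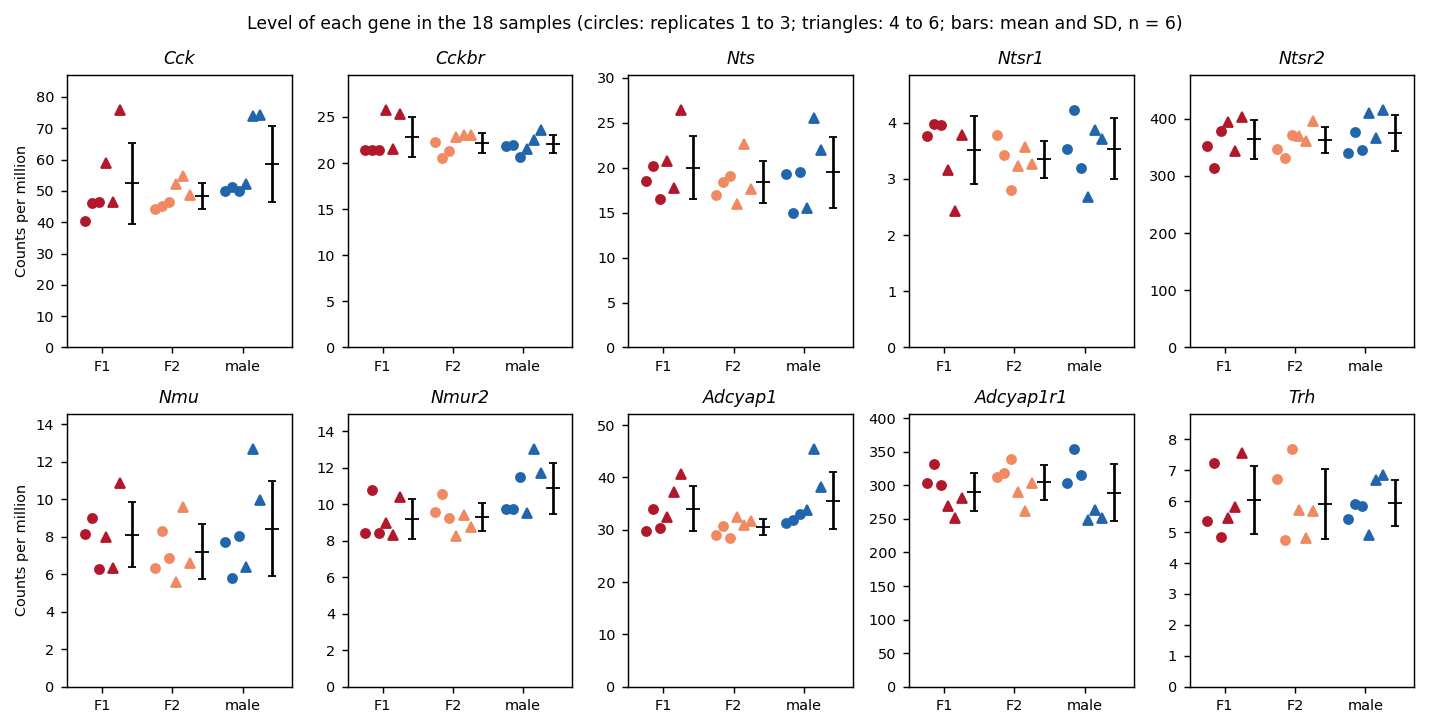
CPM of each gene (linear axis from 0) in the 18 libraries, by group, with circles for replicates 1 to 3, triangles for replicates 4 to 6 and bars for the group mean and SD (n = 6). The groups overlap for every gene, and the highest points of Cck, Nts, Nmu and Adcyap1 are triangles.

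The comparison of F2/metestrus with F1/proestrus asked whether the dorsal horn of the 2 female types differed. None of the 10 genes passed the test. By edgeR's quasi-likelihood test with Benjamini-Hochberg adjustment over 24042 genes, 0 of 10 were called, against 0% of all genes tested, and 0 of 10 had an unadjusted p under 0.05, against 2.48% of all genes (596). The groups overlapped for all 10, where 0.104% of all genes did not overlap. DESeq2 called 2 genes in all and none of the 10. The fitted log2 fold changes ran from -0.16 for Nmu to 0.085 for Adcyap1r1, with a median of -0.039 beside -0.00038 over all genes, and their standard errors from 0.067 to 0.15. Adcyap1 had the smallest p of the 10. It stood at 30.5 ± 1.51 CPM in F2/metestrus and 34.0 ± 4.24 CPM in F1/proestrus (SD, n = 6 each), a log2 fold change of -0.14 (95% interval -0.31 to 0.027, adjusted p = 0.99998), which became -0.11 without F1/proestrus replicate 5 and -0.083 without F1/proestrus replicate 6. The widest bounds of the intervals over the 10 genes were a fold of 0.722 and a fold of 1.21, so changes beyond those bounds lay outside every interval. This fit held no term for the library series, so its standard errors and intervals include spread between the series. With the series as a covariate, no call on the 10 genes changed.

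Males were compared with all 12 females, since the study asked for differences between the sexes after formalin. This fit also held no term for the library series, so its standard errors and intervals include spread between the series. With the series as a covariate, no call on the 10 genes changed. None of the 10 genes was called, against 0.197% of the 24862 genes tested (49 genes, of which 37 or 0.149% were higher and 12 or 0.0483% lower in males), and 1 of 10 had an unadjusted p under 0.05, against 9.72% of all genes. That gene was Nmur2. It was at 10.9 ± 1.42 CPM in males (n = 6) and 9.27 ± 0.912 CPM in females (n = 12), a log2 fold change of 0.23 (SE 0.075, 95% interval 0.072 to 0.38, adjusted p = 0.323). Within the series its log2 fold change was 0.12 for replicates 1 to 3 and 0.32 for replicates 4 to 6, and it was 0.16 without male replicate 5. Against each female group alone it was 0.23 for F1/proestrus and 0.20 for F2/metestrus, comparisons that share the same males.

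Cck was at 58.7 ± 12.0 CPM in males and 50.5 ± 9.42 CPM in females, a log2 fold change of 0.21 (SE 0.12, 95% interval -0.031 to 0.46, adjusted p = 0.557). In replicates 1 to 3 alone, the 3 males lay between 50.0 and 51.3 CPM, above the 6 females at 40.3 to 46.6 CPM, with a fitted log2 difference of 0.17 (adjusted p = 0.431). Groups did not overlap there for 1 of 10 genes, against 3.56% of all genes, and in replicates 4 to 6 for 0 of 10, against 5.53%. In replicates 4 to 6 the groups overlapped and the difference was 0.24 (adjusted p = 0.546). Leaving out male replicate 6 gave 0.12 and male replicate 5 gave 0.13. Adcyap1 was at 35.6 ± 5.38 CPM in males and 32.3 ± 3.55 CPM in females, a log2 fold change of 0.14 (adjusted p = 0.581) that was 0.049 without male replicate 5. The other 7 genes lay between -0.041 for Adcyap1r1 and 0.14 for Nmu, and the groups overlapped for all 10, where 0.133% of all genes did not overlap. Of the markers of other cells, 1 of 5 Schwann cell genes, 1 of 4 tested neutrophil genes and 0 of 5 microglia genes were called higher in males. The share over all genes tested was 0.149%. Schwann cell markers summed to between 875 and 2189 CPM in males and to between 593 and 1187 CPM in females, and neutrophil markers to between 3.38 and 16.1 CPM and between 1.12 and 5.33 CPM. Microglia markers summed to between 219.9 and 239 CPM in males and to between 199 and 224 CPM in females. The 6 motor neuron markers had log2 fold changes from -0.83 to -0.38 in males against females, with 0 of 6 called. They summed to between 23.2 and 164 CPM in males and to between 34.0 and 319 CPM in females. Each of these sums overlapped between the sexes. Their part in the values of Nmur2 and Cck was not tested.

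**Figure D3:**
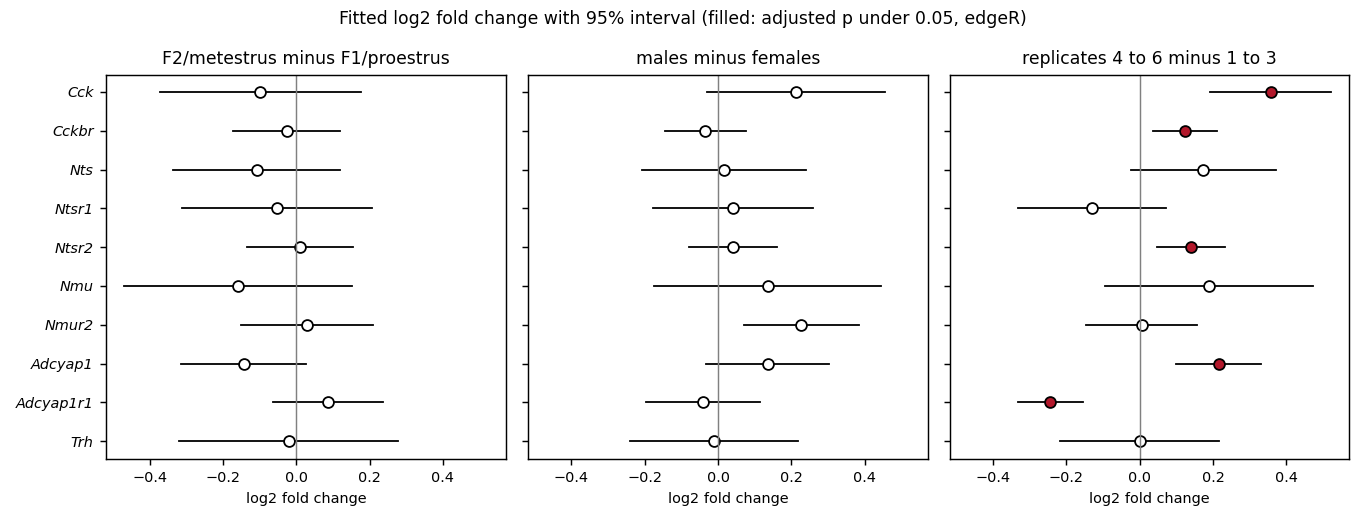
Log2 fold change (x axis) with its 95% interval for each gene in 3 comparisons, filled where the adjusted p was under 0.05. No point is filled for the female groups or the sexes, and 5 are filled between the library series.

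The larger differences of these genes lay between the library series, each of which holds 3 libraries of every group from different mice. The sources used here do not say what separates them. With the group as a covariate, 5 of 10 genes were called, 4 higher and 1 lower in replicates 4 to 6, against 27% of the 24862 genes tested (14% higher and 13% lower). The same 5 had an unadjusted p under 0.05, against 37.8% of all genes, and 0 of 10 had series that did not overlap, against 4.13%. Cck ran from 40.3 through a median of 46.3 to 51.3 CPM in replicates 1 to 3 and from 46.6 through 54.7 to 75.8 CPM in replicates 4 to 6, a log2 fold change of 0.36 (SE 0.079, adjusted p = 0.00212). Adcyap1 ran from 28.4 through 30.8 to 34.0 CPM and from 30.8 through 33.7 to 45.3 CPM, a log2 fold change of 0.22 (adjusted p = 0.00617). For both peptides replicates 4 to 6 held the upper end and the ranges overlapped.

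The PACAP receptor went the other way. Adcyap1r1 ran from 301 through 316 to 353 CPM in replicates 1 to 3 and from 249 through 263 to 303 CPM in replicates 4 to 6, a log2 fold change of -0.24 (SE 0.042, adjusted p = 0.000265), with ranges that overlapped in a narrow stretch. Ntsr2 was higher by 0.14 (adjusted p = 0.0249) and Cckbr by 0.12 (adjusted p = 0.0321) on the log2 scale in replicates 4 to 6, and neither call remained when genes with low counts were kept in the fit, where the adjusted p was 0.0544 and 0.163. The call of Cckbr was also lost in 4 of the fits that left out 1 library, namely F1/proestrus replicates 4 and 6, F2/metestrus replicate 2 and male replicate 5. Nts (0.17), Nmu (0.19), Ntsr1 (-0.13), Nmur2 (0.0054) and Trh (-3.7e-05) did not pass the test.

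The genes were then compared across the 18 libraries after centring each within its series, so that the difference between series did not enter. Of the 45 pairs, 34 had a positive Pearson r and 11 a negative one, with a median of 0.33. Of these pairs, 4 passed a permutation test with 100000 resamples at an adjusted p under 0.05. The shares of positive and of passing pairs among pairs of all genes were not computed. Whether these genes vary together more than other genes do was therefore not tested. The closest pair was of peptides, Nts with Nmu, at r = 0.93 (permutation p = 1e-05, the smallest these resamples can give, adjusted p = 0.00045) and Spearman's rho = 0.81 (permutation p = 0.00021). In replicates 1 to 3 alone r was 0.86 (exact permutation adjusted p = 0.0738, which missed the threshold) and in replicates 4 to 6 alone it was 0.95 (exact permutation adjusted p = 0.0123). The pair passed without the 2 libraries farthest from the median of Nts, at 0.90, with centring within group and series, at 0.97, and without any 1 library, at 0.92 to 0.95. Among 14206 protein-coding genes, Nmu was the nearest to Nts, and 1 gene, Ube2e3, was nearer to Nmu than Nts was.

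Nmur2, the neuromedin U receptor, rose and fell with 3 peptides over the libraries. Its r was 0.75 with Cck, 0.73 with Nmu and 0.72 with Adcyap1 (permutation adjusted p = 0.0216, 0.0216 and 0.0233). Within replicates 1 to 3 these were 0.49, 0.43 and 0.71, and within replicates 4 to 6 they were 0.86, 0.85 and 0.75. With centring within group and series they were 0.67, 0.83 and 0.73, and the relation with Nmu was the 1 of the 3 that passed (permutation adjusted p = 0.248, 0.0169 and 0.143). None of these 3 passed with Spearman's rho (0.48, 0.67 and 0.62). None passed without the 2 libraries farthest from the median of Cck, Nmu and Nmur2 in turn, chosen separately for each pair (r = 0.74, 0.57 and 0.49). None passed without male replicate 5 (r = 0.70, 0.61 and 0.57). For Cck the adjusted p without male replicate 5 was 0.0506 by the permutation test, close to the threshold. Over the 18 fits that left out 1 library, the relations passed in 17, 16 and 15. Without F1/proestrus replicate 5 all 3 passed (r = 0.72, 0.70 and 0.81, permutation adjusted p = 0.0303, 0.038 and 0.00742). The calls for Nmur2 thus depended on male replicate 5, and held in most of the other such fits. Among 14206 protein-coding genes, 0.47%, 0.87% and 0.98% had a higher r to Nmur2 than Cck, Nmu and Adcyap1 had. From the side of these peptides, 2.53%, 2.34% and 0.42% of genes had a higher r to each than Nmur2 had. An r of this size was therefore shared with many other genes. Without F1/proestrus replicate 5, 1 further pair was called, Cck with Adcyap1 (r = 0.81, adjusted p = 0.0303, against 0.67 and 0.132 with it). For the pairs of a peptide with its own receptor, r was 0.40 for Cck and Cckbr, 0.35 for Nts and Ntsr1, -0.25 for Nts and Ntsr2, 0.73 for Nmu and Nmur2, and -0.18 for Adcyap1 and Adcyap1r1.

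**Figure D4:**
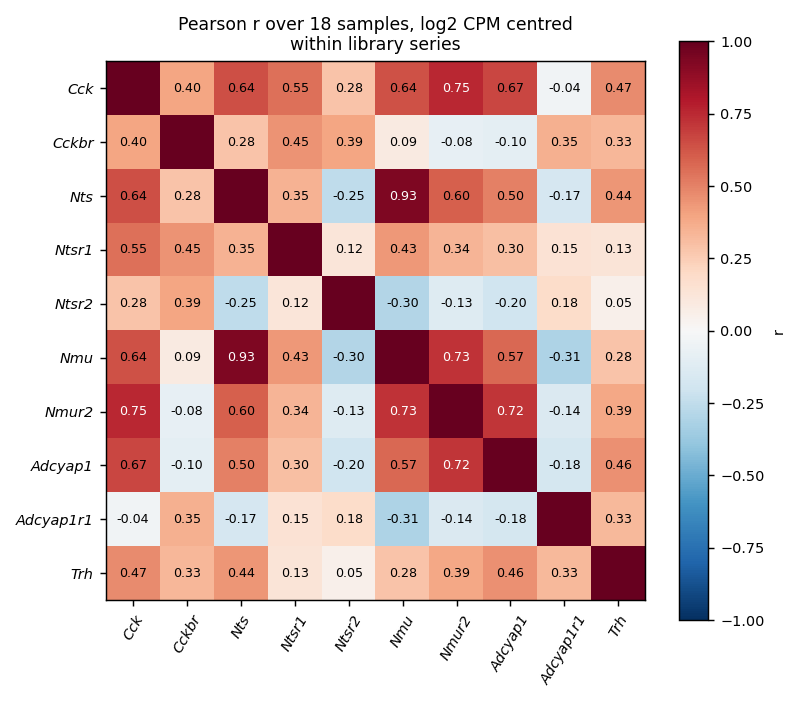
Pearson r for each pair of the 10 genes over 18 libraries, on log2 CPM centred within the library series, from -1 (blue) to 1 (red). Nts with Nmu at 0.93 is the deepest red square off the diagonal, and the lowest value is -0.31 for Nmu with Adcyap1r1.

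**Figure D5:**
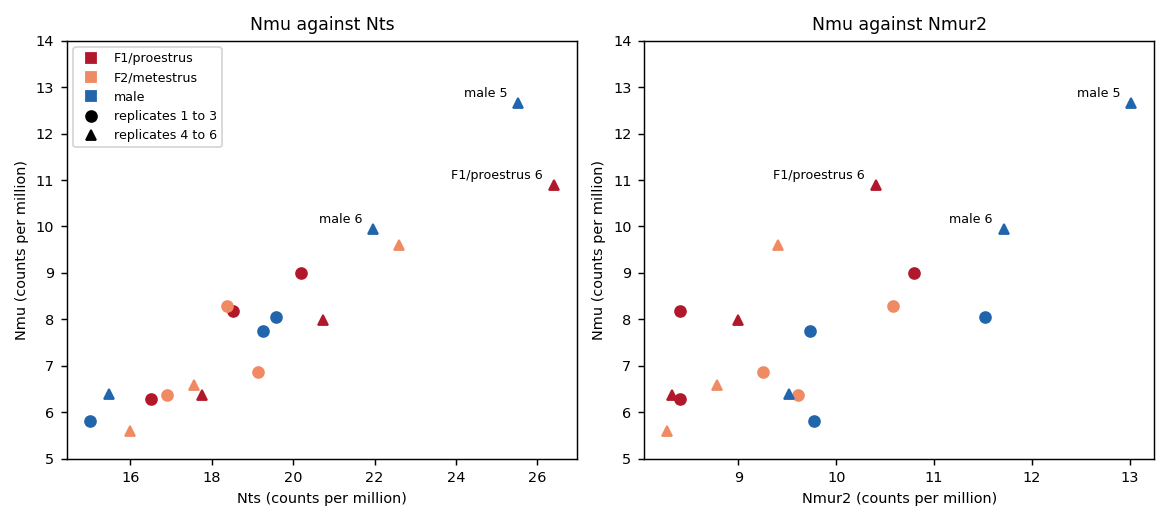
Nmu against Nts (left) and against Nmur2 (right) in CPM (axes not from 0), with a point for each of the 18 libraries, colored by group and shaped by series. Male replicate 5, male replicate 6 and F1/proestrus replicate 6 lie at the upper right of the left panel. In the right panel F1/proestrus replicate 6 lies nearer the middle of the Nmur2 axis, at 10.4 CPM. Male replicates 5 and 6 lie there at 13.0 and 11.7 CPM. The points for Nts follow a narrower band than those for Nmur2.

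In 3 libraries, F1/proestrus replicate 6, male replicate 5 and male replicate 6, each of Cck, Nts, Nmu and Adcyap1 ranked among the 4 highest of 18. The same libraries had motor neuron sums of 56.9, 23.2 and 62.3 CPM, among the 4 lowest, next to F1/proestrus replicate 2 at 34.0 CPM. Each gene was set against the mean log2 CPM of 12 marker lists, 120 relations in all, and none passed (smallest permutation adjusted p = 0.0516). Centring for these relations was within the series and not within group, so differences between the groups or sexes can enter them. The motor neuron score had r = -0.73 with Nmur2, -0.72 with Nmu, -0.67 with Cck and -0.65 with Adcyap1. In replicates 1 to 3 alone these were -0.32, -0.34, -0.075 and -0.53, and in replicates 4 to 6 they were -0.95, -0.89, -0.88 and -0.71, of which the first 3 passed there (exact permutation adjusted p = 0.036, 0.036 and 0.0445). Adcyap1r1 with the inhibitory neuron score also passed in replicates 4 to 6 (r = 0.89, exact permutation adjusted p = 0.0445). Its r in replicates 1 to 3 was -0.12. Ntsr2 had r = -0.72 with the score of meningeal fibroblasts (-0.62 and -0.80 in the series), and Nmur2 had r = 0.68 with that of microglia (0.62 and 0.72). With the astrocyte score Ntsr2 had r = 0.11 (0.15 and 0.090 in the series). The score of dorsal horn excitatory neurons had r = 0.74 with Adcyap1, 0.61 with Trh and 0.54 with Cck. Without F1/proestrus replicate 5, 3 relations passed at a permutation adjusted p of 0.0384, those of Cck with the excitatory score (r = 0.78), Adcyap1 with the motor neuron score (-0.77) and Nmur2 with the Schwann cell score (0.76). How much of the pairwise relations comes with the makeup of the dissected tissue was not tested.

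The promoters of Nts and Nmu are shown because their transcripts formed the closest pair, and those of Cck and Adcyap1 because both were also among the highest in the 3 libraries named above. Of the 6 pairs among these 4 genes, the pair of Nts and Nmu was the 1 that passed, and in replicates 1 to 3 r was -0.17 for Cck with Nts and -0.31 for Cck with Nmu. The windows are the 250 bases before the RefSeq start nearest the annotated 5′ end of the gene (GRCm38.p6), 5′ to 3′ on its strand. Adcyap1 had 2 RefSeq starts. The windows of Nts and Nmu run into the gene coordinates given above. Matches to TGACG, the cAMP response element half-site, and to TGANTCA, the AP-1 site, are in capitals. Both were searched on both strands, so CGTCA also marks the half-site.
Nts, chr10:102490419-102490668, minus strand: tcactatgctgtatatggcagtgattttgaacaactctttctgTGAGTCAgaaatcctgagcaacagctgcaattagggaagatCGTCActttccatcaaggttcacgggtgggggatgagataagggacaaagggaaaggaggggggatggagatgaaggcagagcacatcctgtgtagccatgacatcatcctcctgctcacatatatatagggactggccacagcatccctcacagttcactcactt
Nmu, chr5:76363778-76364027, minus strand: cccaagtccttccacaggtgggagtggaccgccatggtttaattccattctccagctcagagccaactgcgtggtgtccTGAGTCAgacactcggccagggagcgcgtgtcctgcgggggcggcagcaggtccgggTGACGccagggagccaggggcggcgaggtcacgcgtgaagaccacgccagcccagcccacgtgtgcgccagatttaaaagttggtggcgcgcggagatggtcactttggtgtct
Cck, chr9:121495695-121495944, minus strand: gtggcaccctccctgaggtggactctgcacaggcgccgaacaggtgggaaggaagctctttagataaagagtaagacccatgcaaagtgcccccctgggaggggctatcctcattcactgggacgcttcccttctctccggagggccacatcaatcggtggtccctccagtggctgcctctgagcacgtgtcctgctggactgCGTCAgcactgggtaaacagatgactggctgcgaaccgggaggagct
Adcyap1, chr17:93198767-93199016, plus strand: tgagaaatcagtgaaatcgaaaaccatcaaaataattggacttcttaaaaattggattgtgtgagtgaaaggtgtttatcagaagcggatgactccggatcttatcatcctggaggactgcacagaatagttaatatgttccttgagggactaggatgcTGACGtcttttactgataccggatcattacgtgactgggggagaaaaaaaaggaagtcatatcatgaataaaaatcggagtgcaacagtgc

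Of these windows, those of Nts and Nmu, the closest pair, each held 1 AP-1 match and 1 half-site match. The AP-1 match was present in 2 of the 10 genes' windows and in 6.75% of 32851 promoter windows of the same length. The half-site was present in 6 of 10 and in 17.8%, the full element TGACGTCA, which contains the half-site, in 0 of 10 and in 1.55%, and TATAAA in 0 of 10 and in 12.4%. These are matches of letters, and the windows shown were chosen after the expression values were known. Any part of the matches in the expression of Nts, Nmu or the other genes was not tested.

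The genes whose pattern was most like each member were ranked by r over the 18 libraries, after centring within the series and with no test. Besides Nts and Nmu, the neuropeptide precursors among them were Tac2 and Tac1. The share of neuropeptide genes among all genes compared was not computed. Cck was nearest to Tac2 (r = 0.94), the neurokinin B precursor, then to Hpca and Hoxb2 (0.93 each). Adcyap1 was nearest to Tac1 (0.84), the substance P precursor, then to Stx1a and Crlf2 (0.83 each). Nts was followed, after Nmu, by Zfp429 and Nup35 (0.90 each), and Nmu by Cd302 (0.92). Nmur2 was nearest to Serpinb1b, Fam81a and Hoxb9 (0.89, 0.89 and 0.88). Cckbr was nearest to Lrrc4 (0.80), Slitrk1 and Pde1b (0.76 each). Ntsr1 was nearest to Aoc2 (0.80), Pax2 (0.78), a transcription factor of inhibitory interneurons, and Tspan7 (0.77). Ntsr2 was nearest to Pacsin3 (0.92), Ccdc189 (0.91) and Uqcrc1 (0.89), Adcyap1r1 to Efnb3 (0.88), 6430548M08Rik (0.83) and Arf3 (0.82), and Trh to Snx15, Cdkn1c and Qrfpr (0.78 each).

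The machinery around these peptides was described from 4 lists of genes. Over all genes tested, 0% were called between the female groups and 0.197% between the sexes. A count of 0 in lists of this size lies near those shares. Of the other ligands and receptors of the same families, 9 of 10 were tested, Gast not, and 0 were called in either comparison of groups. Nms, which encodes neuromedin S, a second ligand of Nmur2, was at 2.87 ± 0.496 CPM in F2/metestrus and 3.98 ± 1.503 CPM in F1/proestrus (log2 fold change -0.45, adjusted p = 0.99998). F1/proestrus replicate 5 held 1.97 CPM of Nms, against 2.20 to 6.93 CPM in the other 17 libraries. Without that library the F1/proestrus mean of Nms was 4.39 ± 1.27 CPM. Cckar, the type A receptor, was at 9.06 CPM in F1/proestrus replicate 5 and between 1.82 and 3.23 CPM in the other 17 libraries, which placed its group mean there at 3.58 with that library and 2.49 CPM without it. Nmur1 was at 0.176 ± 0.0661 CPM in males and 0.306 ± 0.198 CPM in females (log2 fold change -0.80, adjusted p = 0.488). F1/proestrus replicate 5 held 0.860 CPM of it, against 0.106 to 0.443 CPM in the other 17 libraries, and without that library the F1/proestrus mean was 0.237 ± 0.0521 CPM, beside 0.271 ± 0.127 CPM in F2/metestrus. Vipr2, which also binds PACAP, was at 3.11 ± 2.08 and 4.82 ± 2.22 CPM (-0.64, adjusted p = 0.585).

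Of the 18 genes of peptide maturation and dense core granules, 0 were called in either comparison of groups, with medians of -0.021 between the female groups and 0.050 between the sexes, beside -0.00038 and -0.0013 over all genes. Scg2, the granin secretogranin II, had the smallest p of the list between the sexes, at 709 ± 37.1 CPM in males and 633 ± 37.2 CPM in females (log2 fold change 0.16, SE 0.042, unadjusted p = 0.00109 and adjusted p = 0.171 in edgeR). Vgf stood at 0.16 (adjusted p = 0.495), and Cadps2 and Cpd at -0.12 and 0.10 between the female groups. Of the 11 peptidases that degrade peptides, 0 were called in either comparison, with Tpp2 at -0.17 and Prep at -0.12 in males against females and Pgpep1 at 0.082 and Enpep at -0.074 in F2/metestrus against F1/proestrus.

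Of the 25 genes of receptor coupling, 0 were called in either comparison of groups. Adcy1 and Adcy2, adenylyl cyclases that act downstream of receptors such as PAC1, were at log2 fold changes of 0.23 (155 ± 21.7 against 132 ± 15.2 CPM, adjusted p = 0.328) and 0.13 (adjusted p = 0.375) in males. Plcb3 and Gna14, which carry signals of Gq-coupled receptors, had fitted changes of -0.60 and -0.46 in F2/metestrus against F1/proestrus, and both were set by F1/proestrus replicate 5, which held 119 CPM of Plcb3, against 23.9 to 34.4 CPM elsewhere, and 22.5 CPM of Gna14, against 5.72 to 9.34 CPM. Between the library series, 7 of 18 maturation genes were higher and 3 lower, 2 of 25 coupling genes higher and 11 lower, 1 of 11 peptidases higher and 2 lower, and 0 of 9 other ligands and receptors higher and 2 lower, against 14% higher and 13% lower of all genes tested.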

How the data were processed

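RNA from the ipsilateral DHSC was measured by RNA-seq in 18 mice, 6 per group. The authors mapped reads to mm10 with Subread (2.0.3 in the submitters' processing notes, another release in the methods) and counted reads on gene exons with featureCounts, and deposited raw counts per Ensembl gene. Strand and multi-overlap settings are not given in the sources used here. The labels describe SMART-Seq v4 cDNA with Nextera XT tagmentation and the methods a TruSeq kit. The deposited table of the authors' own DESeq2 comparison was used for gene symbols alone, and its fold changes and p-values were not used. Counts were tested here with edgeR 4.0.16 in R 4.3.3 (TMM, filterByExpr with a minimum count of 10, quasi-likelihood F-test, false discovery rate 5%), with DESeq2 1.42.0, limma 3.58.1, another scaling, other filters, covariates, each series alone and each library left out as alternatives. CPM used total counts, per kilobase of merged exons in GENCODE M21. Correlations used log2 CPM with a prior count of 2. Depth was 73590509 to 125724156 counts per library. On simulated counts with a fold of 1.5, edgeR recovered 57.8% of changed genes for the female groups and 66.7% for the sexes, and with a fold of 1.2, 0% and 6.60%. Replicates are separate mice per the methods, and no pair agreed within sampling noise. The members and gene lists were chosen with earlier results of these data known. Named genes were all members, the 2 genes of each list with the smallest unadjusted p in each comparison of groups, and the 3 nearest genes of each member.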

Additional observations from a re-analysis of the deposited data

Results flagged for a closer look

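Among 66 sets of 6 libraries examined (30 of the 10 genes and 36 of the marker sums), 5 held a library far from the other 5 by Dixon's criterion, which chance meets in about 1 set in 20, and all 5 were marker sums. None of the 10 genes had such a library in any group. In F1/proestrus, replicate 5 had a sensory ganglion sum of 507 CPM against 3.27 to 6.23 CPM. In the same group, replicate 6 had an astrocyte sum of 4277 CPM against 3403 to 3726 CPM and an oligodendrocyte sum of 29822 CPM against 24018 to 25760 CPM, and it was also the library with the most Cck and Nts. Male replicate 5, with the most Nmu, Nmur2 and Adcyap1, had a Schwann cell sum of 2189 CPM against 875 to 1287 CPM. Male replicate 1 had a microglia sum of 219.9 CPM against 233 to 239 CPM.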

How the results depend on the processing

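No call on the 10 genes in either comparison of groups changed under any alternative. The count of all genes called between the female groups went from 0 to 2 with DESeq2. Between the sexes it went from 49 to 166 with DESeq2 (46 of them shared), 31 with at least 10 counts in every library, 134 with the series as a covariate, 16 and 13 in replicates 1 to 3 and 4 to 6 alone, 13 and 22 against F1/proestrus and F2/metestrus alone, and 25 (without male replicate 5) to 77 (without F1/proestrus replicate 5), with 30 without male replicate 4. The replicate numbers did not pair the samples, and the replicate block gave 148. Some fitted log2 changes turned sign. Between the female groups these were Ntsr2 (-0.013) and Trh (0.084) with limma voom, Cck (0.042), Cckbr (0.012) and Trh (0.15) in replicates 1 to 3, and Ntsr1 (0.12), Ntsr2 (-0.0026) and Nmur2 (-0.055) in replicates 4 to 6. Between the sexes they were Cckbr (0.0047), Nts (-0.024), Nmu (-0.055) and Adcyap1r1 (0.027) in replicates 1 to 3, Trh (0.059) in replicates 4 to 6, and Nts (-0.045) against F1/proestrus. Between the series they were Trh with DESeq2 (0.0028) and with its size factors in edgeR (0.00071), and Nmur2 with no filter (-0.0081). With 1 library left out, the ranges that crossed 0 were, between the female groups, Cck -0.16 to 0.042, Cckbr -0.047 to 0.011, Ntsr2 -0.034 to 0.045, Nmur2 -0.0082 to 0.074 and Trh -0.11 to 0.057, between the sexes Nts -0.081 to 0.075, Nmu -0.021 to 0.22, Ntsr1 -0.021 to 0.10 and Trh -0.065 to 0.033, and between the series Nmur2 -0.052 to 0.049 and Trh -0.052 to 0.066. The 4 pairs of genes that passed became 1 with Spearman's rho, 1 without the 2 farthest libraries, 0 and 2 in the series alone, and 1 (without male replicate 5) to 5 (without F1/proestrus replicate 5), with 2 without F2/metestrus replicate 6. Centring within group and series also gave 4, of which Nts with Nmu and Nmu with Nmur2 were shared, while Cck and Adcyap1 with Nmur2 were lost and Nts with Nmur2 (permutation adjusted p = 0.0291) and Adcyap1r1 with Trh (0.0453) were gained. The relations with marker scores, 0 in all, became 4 in replicates 4 to 6 and 3 without F1/proestrus replicate 5. Leaving out single libraries in the correlations was chosen after seeing the data. The cause of these shifts was not tested. The 30 group means stayed within 1 SD when libraries were scaled by TMM. Depth gave at least 197 counts for every gene in every library.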
